A study of Mus musculus with 6 samples.

Results

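The transcripts of 9 IRF and STAT transcription factors, Irf1, Irf2, Irf3, Irf5, Irf7, Irf8, Irf9, Stat2 and Stat3, were followed in murine embryonic fibroblasts (MEF) lacking either TIA1 or TIAR. Members were the probes, control spots excluded, whose gene name on the array was one of these 9. They comprised 11 probes on 20 spots, of 34797 names, 55681 probes and 59305 spots in all. RNA was hybridised to one-colour Agilent mouse arrays, with 2 arrays for each of 3 immortalised lines: wild-type cells of background W4 (WT MEF), TIA1 knockout cells of background BALB/c (TIA1 KO MEF, or the TIA1 knockout) and TIAR knockout cells of background C57BL/6 (TIAR KO MEF, or the TIAR knockout). TIA1 and TIAR, encoded by Tia1 and Tial1, are related RNA-binding proteins that act in splicing and translation. Genotype, background and cell line changed together, so they cannot be told apart in any comparison below. All 6 arrays lay on 1 slide, and the pair from TIA1 KO MEF held a row of the slide to itself, which cannot be told apart from that group either. The labels do not state how many clones stood behind a line, and with 2 arrays a group the p-values measure the spread between these arrays.

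Interferon regulatory factors (IRF) and signal transducers and activators of transcription (STAT) carry signals of infection and cytokines to the nucleus. IRF3, IRF5 and IRF7 are latent in the cytoplasm until kinases downstream of nucleic acid sensors and Toll-like receptors phosphorylate them, whereupon they switch on interferon genes. Interferon in turn acts through receptors and Janus kinases, and STAT2 with IRF9 forms part of the complex that binds the interferon-stimulated response element (ISRE). STAT3 is activated mainly by cytokines of the interleukin 6 family that signal through gp130, and STAT dimers bind the gamma-activated site (GAS). In fibroblasts, these factors maintain a low, readily inducible antiviral programme.

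The sequences on which the results turn were the following. The Irf7 probe is shown first because that gene was called lower in both knockout lines. It matched chr7:148450664-148451014 on the minus strand of mm9, the build of the array annotation, an interval of 351 bases for a probe of 60, so it crossed an intron. The regions upstream of Irf1, Irf5, Irf7 and Stat3 are shown because each was called in at least one knockout line. They are the 250 bases before the RefSeq start in GRCm38.p6, and capitals mark matches to the GAS letters TTCNNNGAA or the ISRE letters GAAANNGAAA on either strand. The region upstream of Isg15, an interferon-induced gene described below, was added after its values were seen, because it shows overlapping ISRE matches.
Irf7 probe: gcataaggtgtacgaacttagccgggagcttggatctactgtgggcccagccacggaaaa
Irf1 upstream (chr11:53769764-53770013, plus strand): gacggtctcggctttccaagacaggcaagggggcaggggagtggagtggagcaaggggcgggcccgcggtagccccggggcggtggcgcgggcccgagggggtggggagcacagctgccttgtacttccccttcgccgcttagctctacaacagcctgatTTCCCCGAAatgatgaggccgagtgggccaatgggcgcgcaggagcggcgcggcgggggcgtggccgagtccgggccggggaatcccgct
Irf5 upstream (chr6:29526375-29526624, plus strand): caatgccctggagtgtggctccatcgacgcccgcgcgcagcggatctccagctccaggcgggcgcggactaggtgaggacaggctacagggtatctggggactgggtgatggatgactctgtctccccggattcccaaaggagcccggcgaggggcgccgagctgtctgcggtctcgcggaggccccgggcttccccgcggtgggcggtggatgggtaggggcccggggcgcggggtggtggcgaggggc
Irf7 upstream (chr7:141266425-141266674, minus strand): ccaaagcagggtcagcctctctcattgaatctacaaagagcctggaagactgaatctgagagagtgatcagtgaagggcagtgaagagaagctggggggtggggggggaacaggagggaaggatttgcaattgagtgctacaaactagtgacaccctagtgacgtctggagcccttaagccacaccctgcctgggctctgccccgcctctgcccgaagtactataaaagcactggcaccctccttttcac
Stat3 upstream (chr11:100939541-100939790, minus strand): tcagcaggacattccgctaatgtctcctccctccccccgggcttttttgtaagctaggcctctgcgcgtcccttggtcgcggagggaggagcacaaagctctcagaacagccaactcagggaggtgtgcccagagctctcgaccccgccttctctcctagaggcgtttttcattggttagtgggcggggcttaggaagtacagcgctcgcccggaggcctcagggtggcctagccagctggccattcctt
Isg15 upstream (chr4:156200819-156201068, minus strand): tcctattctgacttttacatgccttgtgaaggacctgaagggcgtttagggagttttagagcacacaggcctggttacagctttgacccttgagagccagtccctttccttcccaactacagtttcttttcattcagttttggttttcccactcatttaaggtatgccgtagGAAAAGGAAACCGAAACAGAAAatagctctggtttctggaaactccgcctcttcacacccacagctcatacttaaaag
The Irf1 region held 1 GAS match, which began at base -90 from the start, and a second RefSeq start of the same gene held neither motif. No match to these letters was found in the windows of Irf5, Irf7 or Stat3. In Isg15, 3 ISRE matches overlapped, beginning at bases -78, -72 and -66.

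The targeted genes were examined before the factors. Values are normalised log2 intensities, in which a step of 1 is a doubling, and groups were compared with limma on the arrays of the 2 groups involved. A probe was called when its p-value, adjusted by Benjamini-Hochberg over all 55681 probes, was below 0.05 and its fold change was above 2. Tia1 (brightest probe) gave 10.72 and 8.54 in wild type, 7.87 and 8.44 in the TIA1 knockout, and 9.56 and 9.58 in the TIAR knockout. Both TIA1 knockout values were below both wild-type values, but the wild-type arrays lay far apart and the difference of -1.47 did not pass (SE 0.79, limma adjusted p = 0.288). Tial1 gave 13.22 on the only wild-type array with a usable spot, the other spot having been dropped as an outlier, against 14.07 and 13.69 in the TIA1 knockout and 9.57 and 11.60 in the TIAR knockout. The TIAR knockout values were the lowest, with a difference from wild type of -2.63 (SE 0.87, limma adjusted p = 0.200). Where the deletions lie relative to these probes is not given in the sources used here.

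The brightest probe of each factor was taken as its level. Levels of the factors were compared between groups, not between probes.

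**Figure D1:**
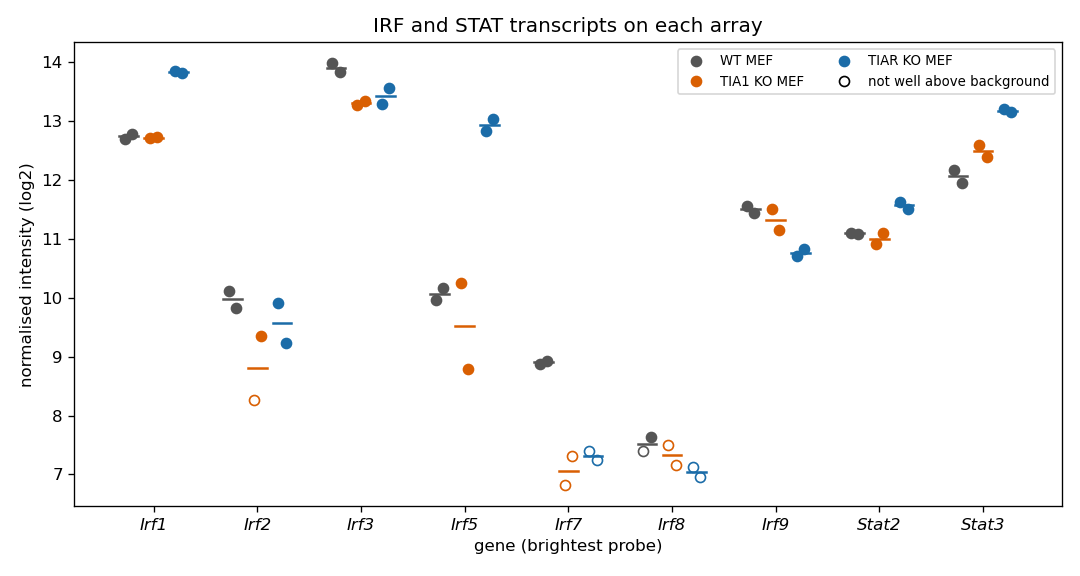
Normalised log2 intensity (vertical axis) of the brightest probe of each of the 9 factors (horizontal axis) on the 2 arrays of WT MEF, TIA1 KO MEF and TIAR KO MEF. Points are arrays, bars are group means, and open points were not well above background. Irf7 fell from 8.88 and 8.93 in WT MEF to between 6.82 and 7.39 in the knockout lines, and Irf5 stood at 12.83 and 13.03 in TIAR KO MEF.

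Irf7, the factor that amplifies type I interferon production and is itself induced by interferon, was called lower in both knockout lines. It measured 8.88 and 8.93 in wild type, 6.82 and 7.31 in the TIA1 knockout, and 7.39 and 7.25 in the TIAR knockout. The wild-type values stood above all 4 knockout values, and none of the knockout arrays rated the spot well above background. Before normalisation the spot read 392 and 352 intensity units in wild type, against 214 and 178 in the TIA1 knockout and 135 and 112 in the TIAR knockout. The fitted difference was -1.84 in the TIA1 knockout (SE 0.22, limma adjusted p = 0.0370) and -1.58 in the TIAR knockout (SE 0.14, limma adjusted p = 0.00381). Since the knockout spots were at background, these correspond to bounds on the fold between group means. By these means Irf7 was at least 2.36-fold lower in the TIA1 knockout and at least 3.0-fold lower in the TIAR knockout. Each bound sets the wild-type mean against the dimmest level counted as well above background on the knockout arrays, or the spot's own value where that was higher. The fall in the TIAR knockout was called under each of the 14 other settings tried, at -3.19 with the scanner's processed signal and between -1.93 and -1.51 in the others. Where 1 array was left out, the lone array of its group was assumed to vary like the other group, whose pair alone gave the spread among arrays. The fall in the TIA1 knockout kept its size but was not called without replicate 1 of WT MEF (-1.86, limma adjusted p = 0.344) or without replicate 2 (-1.82, limma adjusted p = 0.341), with the scanner's processed signal (-1.95, limma adjusted p = 0.126), or with the replicate number as a block (-1.84, limma adjusted p = 0.0702). Over its 14 settings the adjusted p ranged from 0.000216 to 0.344.

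Irf5, which acts downstream of Toll-like receptors and is best known from macrophages and dendritic cells, was called higher in the TIAR knockout. Its fitted difference there was the largest among the factors, but Irf7 at background gave only a bound and cannot be ranked against it. With the scanner's processed signal Irf7 differed more in that line (-3.19 against 2.72 for Irf5). The Irf5 levels were 9.97 and 10.17 in wild type, 10.25 and 8.79 in the TIA1 knockout, and 12.83 and 13.03 in the TIAR knockout. The TIAR knockout arrays were close together and above every other array, while those of the TIA1 knockout straddled the wild-type pair. The rise in the TIAR knockout was 2.87 (SE 0.16, limma adjusted p = 0.00089), a 7.29-fold change, and it was called under each of the 14 other settings, between 2.50 and 2.97. Against WT MEF the TIA1 knockout difference was -0.55 (SE 0.53, limma adjusted p = 0.514). It was -1.28 without replicate 1 of the TIA1 knockout (limma adjusted p = 0.0485) and 0.19 without replicate 2 (limma adjusted p = 0.529), fits that leave out the spread of the TIA1 knockout pair and take it from WT MEF. Scaling to a common array median gave a call at -1.94 (limma adjusted p = 0.00062). The local background of this spot was 689.5 on replicate 1 of the TIA1 knockout and between 42 and 79.5 on the other 5 arrays, and its part in that spread was not tested. The probe lies at chr6:29486901-29486960 on the plus strand of mm9.

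Irf1, a tumour suppressor and activator of interferon-responsive and antigen presentation genes, was called higher in the TIAR knockout. It measured 12.70 and 12.78 in wild type, 12.72 and 12.72 in the TIA1 knockout, and 13.85 and 13.82 in the TIAR knockout. The TIA1 knockout lay between the wild-type values, and both TIAR knockout arrays lay above them. The rise was 1.10 (SE 0.14, limma adjusted p = 0.0115), or 2.14-fold, and the difference of the TIA1 knockout from WT MEF was -0.02 with a 95% interval from -0.42 to 0.38. With a difference of nearly the same size, the call in the TIAR knockout was lost without replicate 1 of WT MEF (1.06, limma adjusted p = 0.0566), without replicate 1 of the TIAR knockout (1.08, limma adjusted p = 0.0624) and without its replicate 2 (1.11, limma adjusted p = 0.0621), over a range of adjusted p from 0.0116 to 0.202 across settings, and it was also lost with scaling to a common array median (0.65) and with the processed signal (0.86). The brightest probe lies at chr11:53590746-53590805 of mm9, and its local background on replicate 1 of the TIA1 knockout was 773, against 47 to 79 on the other arrays. A further Irf1 probe, about 1 kilobase downstream at chr11:53591817-53591876, was not well above background on any array.

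Stat3, the main nuclear effector of the interleukin 6 family, was also called higher in the TIAR knockout. The mean over its 10 spots (9 on replicate 1 of either knockout, where an outlier was dropped) was 12.17 and 11.95 in wild type, 12.59 and 12.38 in the TIA1 knockout, and 13.20 and 13.15 in the TIAR knockout. The array means of the 3 groups did not overlap, with the TIA1 knockout in between. Single spots of wild type and the TIA1 knockout did overlap. They ran from 11.04 to 12.37 on replicate 2 of WT MEF and from 11.85 to 12.66 on replicate 2 of the TIA1 knockout. The rise was 1.11 in the TIAR knockout (SE 0.15, limma adjusted p = 0.0146), or 2.17-fold, and the difference of 0.43 in the TIA1 knockout did not pass (SE 0.18, limma adjusted p = 0.212). Its call in the TIAR knockout was lost without replicate 2 of WT MEF (1.01, limma adjusted p = 0.0620), without replicate 1 of the TIAR knockout (1.09, limma adjusted p = 0.0766) and without its replicate 2 (1.14, limma adjusted p = 0.0730), within a range from 0.0141 to 0.171 across settings, and it was also lost with scaling to a common array median (0.66) and with the processed signal (0.93). This probe lies at chr11:100749598-100749657 of mm9. A dimmer Stat3 probe, at chr11:100759946-100760005, was not called. The array annotation lists it under another transcript, and whether either probe is specific to a single transcript was not determined. The dimmer probe gave 7.66 and 7.71 in wild type, 6.80 and 7.20 in the TIA1 knockout, and 7.69 and 7.83 in the TIAR knockout. Its difference in the TIAR knockout was 0.07 (SE 0.14, limma adjusted p = 0.850), with a 95% interval from -0.29 to 0.44. That spot was rated well above background on both TIAR knockout arrays, on 1 of 2 wild-type arrays and on neither array of the TIA1 knockout. The rise of the brighter probe was thus not seen with the dimmer one, which lay near background.

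The remaining factors were not called in either knockout line. Irf9, the DNA-binding partner of STAT2, gave 11.56 and 11.44 in wild type, 11.50 and 11.16 in the TIA1 knockout, and 10.71 and 10.82 in the TIAR knockout. Its difference in the TIAR knockout passed the adjusted p-value but not the fold limit, at -0.73 (SE 0.15, limma adjusted p = 0.0466). That p-value lay above 0.05 in most other settings, including the authors' log2 table (0.0590), the replicate number as a block (0.0837) and each array left out (0.111 to 0.172), while scaling to a common array median gave a call (-1.12, limma adjusted p = 0.00791). Stat2 gave 11.09 and 11.09 in wild type, 10.90 and 11.10 in the TIA1 knockout, and 11.63 and 11.51 in the TIAR knockout, a difference of 0.48 in the latter (SE 0.14, limma adjusted p = 0.133). Both TIAR knockout arrays lay below wild type for Irf9 and above it for Stat2, with differences under 2-fold. Irf3, the constitutively present sensor-activated factor, gave 13.98 and 13.84 in wild type, 13.27 and 13.34 in the TIA1 knockout, and 13.29 and 13.56 in the TIAR knockout. All 4 knockout values were below the wild-type pair, but neither difference passed (-0.61, limma adjusted p = 0.116, and -0.48, limma adjusted p = 0.190). Irf2, a competitor of IRF1 at shared sites, gave 10.12 and 9.83 in wild type, 8.26 and 9.34 in the TIA1 knockout, and 9.90 and 9.23 in the TIAR knockout. The TIA1 knockout difference of -1.18 had an SE of 0.41 (limma adjusted p = 0.168), and the spot was not well above background on 1 of those arrays. That value depended on which TIA1 knockout array was used: it was -0.64 without replicate 1 (limma adjusted p = 0.174) and -1.72 without replicate 2 (limma adjusted p = 0.0151). The latter set the array at background against wild type, whose pair gave the spread. Scaling to a common array median also gave a call (-2.04, limma adjusted p = 0.000321), and that scaling called 7 of the 11 member probes lower in the TIA1 knockout. Irf8, a factor of myeloid and B lineages, stayed between 6.96 and 7.64 on the 6 arrays and was well above background on 1 of them.

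**Figure D2:**
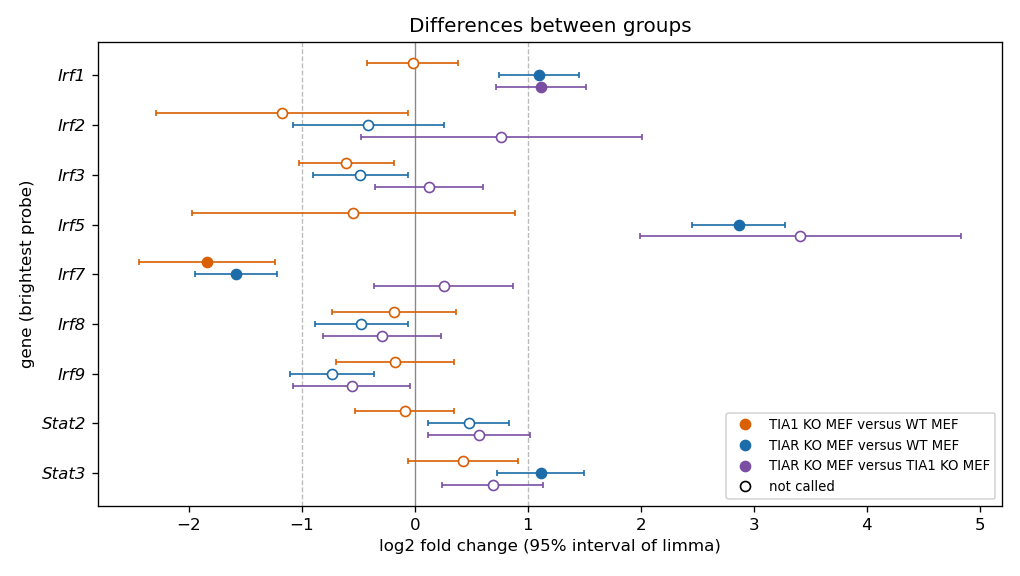
Log2 fold change (horizontal axis) with its 95% interval from limma for the brightest probe of each factor (vertical axis) in the 3 comparisons between groups. Filled points were called, open points were not, and dashed lines mark a 2-fold change. Irf7 was called in both knockout lines, and Irf1, Irf5 and Stat3 in TIAR KO MEF, while the Irf7 point between the knockout lines sets background against background.

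Counted over all 11 member probes, 1 was called in the TIA1 knockout (9.09%), none higher and 1 lower, while 3.54% of all probes were called there, 2.18% higher and 1.36% lower. In the TIAR knockout 4 of the 11 were called (36.4%), 3 higher and 1 lower, against a background of 5.76%, with 3.39% higher and 2.37% lower. All probes of the 9 genes were counted, dim ones included. With only probes well above background, 1 of 8 member probes was called in the TIA1 knockout, beside 1319 higher and 1630 lower of 23442 probes. In the TIAR knockout 3 of 9 were called higher and 1 lower, beside 1942 and 1394 of 25196 probes. At an unadjusted p below 0.05, 4 member probes passed in the TIA1 knockout and 8 in the TIAR knockout, that is 36.4% and 72.7%, where 27.8% and 20.2% of all probes did. The groups did not overlap for 6 of 11 probes in the TIA1 knockout and 9 of 11 in the TIAR knockout, beside 65.2% and 49% of all probes. Both comparisons used the same wild-type arrays. The median difference of the member probes was -0.46 in the TIA1 knockout and 0.07 in the TIAR knockout, where the medians of all probes were -0.09 and -0.02. Of 7 other genes of these families on the array, none was called by limma in either line, and at an unadjusted p below 0.05 there were 2 in the TIA1 knockout and 1 in the TIAR knockout. Scaling to a common array median called 3 of the 7 lower in the TIA1 knockout. With either wild-type array left out, no probe of the whole array was called in the TIA1 knockout. The spread then came from the TIA1 knockout pair alone, so the loss of single calls in these fits says little of the gene.

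When the knockout lines were compared directly, 1 of 11 member probes was called, the brightest of Irf1, which was 1.12 higher in the TIAR knockout (SE 0.15, limma adjusted p = 0.0443). Of all probes 3.35% were called in that comparison, 1.72% higher and 1.63% lower in the TIAR knockout. The Irf1 call was lost with the authors' own log2 table (1.10, limma adjusted p = 0.0672), the processed signal (limma adjusted p = 0.0716), an offset of 16 (limma adjusted p = 0.0730), quantiles without loess (limma adjusted p = 0.0531) and the replicate number as a block (limma adjusted p = 0.154), and without replicate 1 or replicate 2 of the TIAR knockout (limma adjusted p = 0.330 and 0.343), within a range from 0.000113 to 0.343. In these 7 settings the difference itself stayed between 1.10 and 1.17. With the block no probe of the whole array was called between these lines. Without either TIAR knockout array the spread came from the TIA1 knockout pair alone. The loss of the call in these fits says little of Irf1. For Irf5 the difference of 3.41 did not pass (SE 0.53, limma adjusted p = 0.0579), given the spread of the TIA1 knockout pair. It passed with dim probes removed, with all groups fitted, with an intensity trend and with a common array median. Without replicate 1 of the TIA1 knockout it was 4.14 (limma adjusted p = 0.00268) and without replicate 2 it was 2.68 (limma adjusted p = 0.00539), with the spread taken from the close TIAR knockout pair and not from the TIA1 knockout. The adjusted p reached 0.397 in other settings. Stat3 was 0.69 higher in the TIAR knockout (SE 0.17, limma adjusted p = 0.127). Irf7 was at background in both knockout lines, so that their difference could not be measured.

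**Figure D3:**
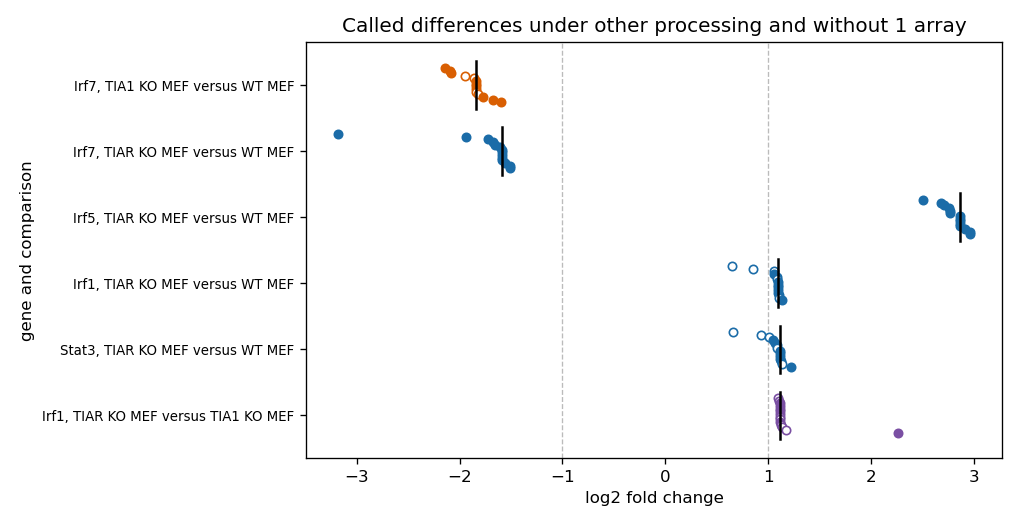
Log2 fold change (horizontal axis) of the 6 called differences of the factors' brightest probes (vertical axis) under other processing settings and without 1 array at a time. Points are settings, filled where still called, the black bar is the reported value and dashed lines mark a 2-fold change. Irf5 and Irf7 in TIAR KO MEF against WT MEF stayed filled throughout. Irf1 and Stat3 in that comparison lay near the 2-fold limit and were open in 5 settings each. Irf1 between the knockout lines was open in 7.

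The genes around the factors were described by lists ordered from ligand to target, each gene by its brightest probe. Their counts are to be read beside the 3.54% and 5.76% of all probes that were called in the TIA1 and the TIAR knockout. Those shares include the many dim probes, whereas most lists held mainly probes above background. With only probes well above background, 1319 of 23442 were called higher and 1630 lower in the TIA1 knockout. In the TIAR knockout 1942 of 25196 were called higher and 1394 lower. Of 19 interferon ligand genes, 16 were on the array and none was called by limma in either knockout line, with 2 and 0 at an unadjusted p below 0.05 in the TIA1 and the TIAR knockout. Only 3 of the 16 in the first comparison and 5 in the second were rated above background on both arrays of either group, so that for most of them a change could not be measured. Without replicate 2 of the TIA1 knockout 2 were called higher in that line. Ifnb1, the interferon that fibroblasts make first, lay between 6.44 and 7.07 and was at background on all 6 arrays. The Ifna genes are near-identical copies, so that their probes may report on one another. Among 14 receptors and Janus kinases, 2 were called higher and 1 lower in the TIA1 knockout, and 2 higher and none lower in the TIAR knockout, with list medians of 0.05 and 0.10. The 2 higher calls in the TIAR knockout stood in number under every other setting. In some settings, among them scaling to a common array median, 1 was called lower there. In the TIA1 knockout there was no call with the processed signal or without either wild-type array, 1 higher and none lower with the replicate number as a block, 3 lower without replicate 2 of the TIA1 knockout and 10 lower with a common array median. Lifr, the leukaemia inhibitory factor receptor, which pairs with gp130 upstream of STAT3, measured 7.77 and 7.77 in wild type, 10.54 and 10.38 in the TIA1 knockout, and 13.23 and 12.97 in the TIAR knockout. It rose by 2.69 (SE 0.16, limma adjusted p = 0.00840) in the former and by 5.33 (SE 0.16, limma adjusted p = 0.000209) in the latter. Osmr, the oncostatin M receptor, rose by 2.03 in the TIA1 knockout (limma adjusted p = 0.0155) and 2.75 in the TIAR knockout (limma adjusted p = 0.000707). Il6st, which encodes gp130 itself, gave 13.06 and 12.93 in wild type against 13.97 and 13.87 in the TIAR knockout and was not called. Il10rb, a chain of the receptors for interleukin 10 and interferon lambda, fell by 1.55 in the TIA1 knockout (limma adjusted p = 0.0229). With the authors' log2 table or quantiles without loess, no gene of this list was called lower in that line.

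Of 17 activators of IRF3, IRF5 and IRF7, 1 was called higher in each knockout line and none lower, a share near that of all probes called, and the list median was -0.35 in both. In the TIA1 knockout it was Ikbke, an IRF kinase, which rose by 1.44 (limma adjusted p = 0.0348). No activator was called higher there with an intensity trend, the replicate number as a block, the processed signal or a common array median, or without either wild-type array. Scaling to a common array median called 13 lower, and fitting all groups called 2 lower. Lower calls were also gained without replicate 2 of the TIA1 knockout. In the TIAR knockout it was Tbkbp1, an adaptor of the kinase TBK1, which rose by 2.28 (limma adjusted p = 0.00481). There 1 was called lower without replicate 2 of WT MEF or without replicate 1 of the TIAR knockout, and 4 with a common array median. Of 24 inhibitors of the pathway, none was called higher and 2 lower in the TIA1 knockout, and 1 higher and 2 lower in the TIAR knockout, with medians of -0.46 and -0.21. In the TIA1 knockout the number called lower was 0 with the processed signal or without either wild-type array, 1 with the replicate number as a block, 4 without replicate 2 of the TIA1 knockout and 20 with a common array median. In the TIAR knockout it was 1 without replicate 2 of WT MEF or with the processed signal and 5 with a common array median, and none was called higher with the processed signal, with all groups fitted or without replicate 2 of the TIAR knockout. Usp18, an interferon-induced brake on the type I receptor, measured 9.43 and 9.44 in wild type, 6.83 and 7.16 in the TIA1 knockout, and 7.45 and 7.30 in the TIAR knockout. The knockout spots were at background, so only bounds from group means are given. Usp18 was at least 3.59-fold lower in the TIA1 knockout (limma adjusted p = 0.0148) and at least 4.18-fold lower in the TIAR knockout (limma adjusted p = 0.00163). The latter bound was the fitted fold itself (SE 0.14 in log2). Socs1, an inhibitor of Janus kinases, fell by 1.29 (limma adjusted p = 0.0372) and by 1.66 (limma adjusted p = 0.0154) in the same order. Cish, another cytokine-induced inhibitor, rose by 1.29 in the TIAR knockout (limma adjusted p = 0.00738).

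The longest list held 46 type I interferon-induced genes. Of these, 14 were called lower and 1 higher in the TIA1 knockout, and 19 lower and none higher in the TIAR knockout, with list medians of -1.09 and -0.73. Ccl5, a chemokine, measured 14.76 and 13.55 in wild type, 9.53 and 9.50 in the TIA1 knockout, and 8.10 and 7.87 in the TIAR knockout. Its fall from the wild-type mean was 24.9-fold in the TIA1 knockout (SE 0.44 in log2, limma adjusted p = 0.0228). In the TIAR knockout it was 71.9-fold (SE 0.40 in log2, limma adjusted p = 0.00131). The wild-type arrays lay apart, so both folds depend on which of them is used. Isg15, a ubiquitin-like antiviral modifier, measured 14.09 and 13.99 in wild type, 11.97 and 11.70 in the TIA1 knockout, and 9.37 and 9.87 in the TIAR knockout, where it fell by 4.42 (SE 0.21, limma adjusted p = 0.000546). Oas1a, an antiviral oligoadenylate synthetase with near-identical copies, gave 12.26 and 13.10 in wild type, 9.89 and 9.68 in the TIA1 knockout, and 6.82 and 6.99 in the TIAR knockout. It fell by 2.89 in the TIA1 knockout (limma adjusted p = 0.0332). By group means it was at least 50.9-fold lower in the TIAR knockout (fitted difference -5.78, SE 0.30, limma adjusted p = 0.000684). For these genes each knockout value lay below each wild-type value. Ifi27l2a, an interferon-induced mitochondrial protein, fell by 4.08 in the TIA1 knockout (limma adjusted p = 0.0104), Cxcl10, a chemokine for T cells, by 2.41 there (limma adjusted p = 0.0160), and Oasl1, a translational inhibitor of Irf7 mRNA, was at least 16.2-fold lower in the TIAR knockout (limma adjusted p = 0.000899). The gene called higher in the TIA1 knockout was Lgals3bp, named after its value was seen (14.78 and 14.70 against 13.28 and 13.26 in wild type). In the TIAR knockout 15 to 20 genes of the list were called lower over the other settings. In the TIA1 knockout none was called lower without replicate 1 or without replicate 2 of WT MEF, although the list medians there were -1.05 and -1.12. None was called with the processed signal either, where the list median was -1.02 and that of all probes 1.98. The replicate number as a block left 6 called lower, with the list median still -1.09, whereas 23 were called lower without replicate 2 of the TIA1 knockout, and 21 with dim probes removed or with all groups fitted. Scaling to a common array median called 33 lower and moved the median of all probes to -0.68. Ifitm3, also named afterwards, was not called and gave 14.76 and 14.65 in wild type and between 14.97 and 15.33 in the knockout lines.

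Of 28 type II interferon-induced genes, which are targets of IRF1 among others, 6 were called lower and 1 higher in the TIA1 knockout, and 10 lower and 2 higher in the TIAR knockout, with medians of -0.56 and -0.48. In the TIA1 knockout none was called with the replicate number as a block (median -0.56), with the processed signal (-0.61) or without replicate 1 or 2 of WT MEF (-0.57 and -0.62). There 10 were called lower without replicate 2 of the TIA1 knockout or with all groups fitted, and 17 with a common array median. In the TIAR knockout 8 to 11 were called lower over the other settings. Nlrc5, the transactivator of MHC class I genes, measured 10.25 and 10.05 in wild type, 7.03 and 7.61 in the TIA1 knockout, and 7.17 and 7.06 in the TIAR knockout. It was at least 5.02-fold lower in the former (limma adjusted p = 0.0206) and at least 7.77-fold lower in the latter (limma adjusted p = 0.000661). Psmb8, an immunoproteasome subunit, was by group means at least 6.21-fold lower in the TIA1 knockout (fitted difference -3.18, SE 0.38, limma adjusted p = 0.0358). It fell by 2.70 in the TIAR knockout (limma adjusted p = 0.00846). H2-K1 and H2-D1, MHC class I heavy chains with near-identical relatives, fell in the TIAR knockout by 2.69 (limma adjusted p = 0.00125) and 2.66 (limma adjusted p = 0.000755). Igtp and Gbp3, interferon-induced GTPases, were at least 3.74-fold (limma adjusted p = 0.0298) and 3.11-fold (limma adjusted p = 0.0329) lower in the TIA1 knockout.

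Of 24 STAT3 target genes, 1 was called higher and 2 lower in the TIA1 knockout, and 2 higher and 3 lower in the TIAR knockout. The list medians were -0.13 and -0.16. In the TIA1 knockout the number called lower was 0 without either wild-type array or with the processed signal, 6 without replicate 2 of the TIA1 knockout, 4 with dim probes removed, all groups fitted or an intensity trend, and 13 with a common array median. In the TIAR knockout it was 1 with the processed signal and 6 with a common array median, which called 1 higher. It was 2 with the authors' log2 table, an offset of 16, outlier spots kept, all groups fitted, an intensity trend or the replicate block. The number called lower there also fell without either wild-type array. Il6, the cytokine, measured 7.47 and 7.61 in wild type, 6.84 and 7.10 in the TIA1 knockout, and 9.25 and 9.11 in the TIAR knockout, a rise of 1.64 in the latter (SE 0.15, limma adjusted p = 0.00381). Cebpd, an acute-phase transcription factor, rose by 1.63 there (limma adjusted p = 0.0197). Birc5, an inhibitor of apoptosis, fell by 1.14 there, only just under the threshold (limma adjusted p = 0.0492). Mmp2, a gelatinase, was at least 13.8-fold lower in the TIA1 knockout (limma adjusted p = 0.0119) and fell by 3.95 in the TIAR knockout (limma adjusted p = 0.000367). Ccl2, a monocyte chemokine, gave 17.66 and 17.72 in wild type, 14.38 and 14.43 in the TIA1 knockout, and 16.56 and 16.67 in the TIAR knockout, so that it was lowest in the TIA1 knockout. Vegfa, the angiogenic factor, rose by 1.30 in the TIA1 knockout (limma adjusted p = 0.0326). Socs3, the classical feedback inhibitor induced by STAT3, was named afterwards: it gave 10.32 and 11.64 in wild type and 11.20 and 11.07 in the TIAR knockout and was not called.

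**Figure D4:**
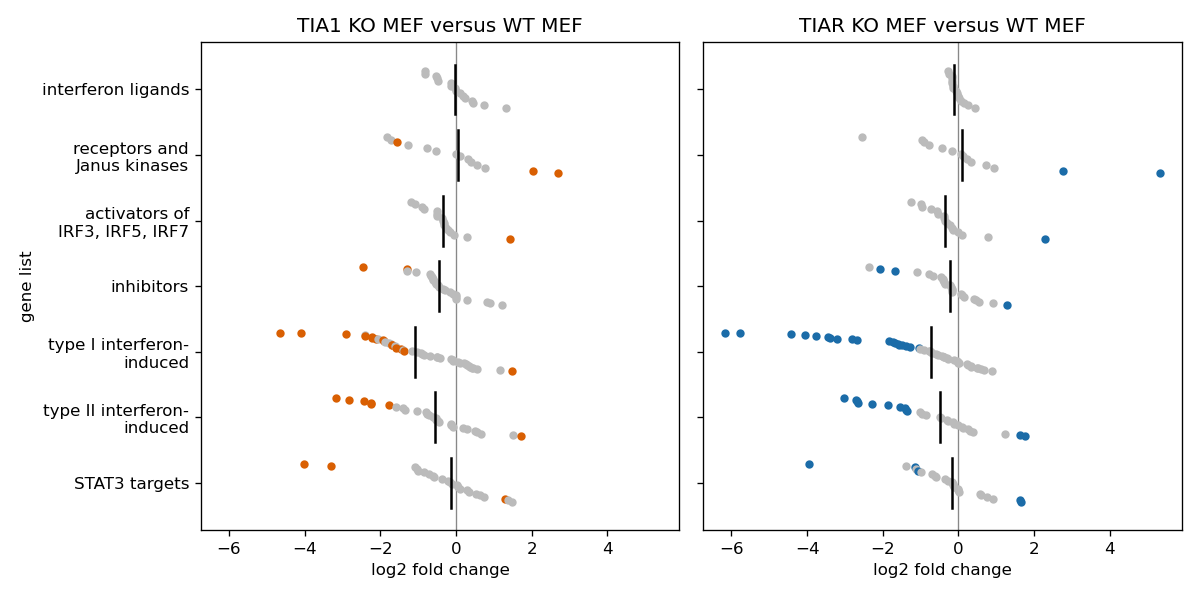
Log2 fold change (horizontal axis) of each gene in 7 lists of the interferon, IRF and STAT pathways (vertical axis), TIA1 KO MEF against WT MEF on the left and TIAR KO MEF against WT MEF on the right. Points are genes, coloured where called, and black bars are list medians. Of 46 type I interferon-induced genes 14 were called lower on the left and 19 on the right, and no ligand gene was called.

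The promoters of these genes were searched for the same letters, in the window from 250 bases before to 50 after each RefSeq start. GAAANNGAAA, read on both strands, was present in 3.44% of 32851 promoters of all genes, and the palindromic TTCNNNGAA in 8.30%. Counted by gene over all its starts, the shares were 3.99% and 9.55% of 27025 genes. Among the 9 factors the ISRE letters were found for Irf2 and Stat2, and the GAS letters for Irf1, Irf2 and Irf8. Among the type I interferon-induced genes, 17 of the 35 with a promoter in the table held the ISRE letters. They were present in 9 of 14 genes called lower in the TIAR knockout and in 8 of 21 of the others. The corresponding counts for the TIA1 knockout were 7 of 10 and 10 of 25. For the GAS letters they were 2 of 14 and 7 of 21 in the TIAR knockout. In the TIA1 knockout they were 3 of 10 and 6 of 25. The ISRE letters were also found for 9 of 21 type II interferon-induced genes and for 10 of 18 interferon ligands, of which none was called, and for 2 of 17 STAT3 target genes. The GAS letters were found for 9 of 35 type I genes, 7 of 21 type II genes, 9 of 18 ligands and 0 of 17 STAT3 target genes. For the other pathway lists the ISRE letters were found for 0 of 13 receptors and Janus kinases, 1 of 14 activators and 2 of 16 inhibitors, and the GAS letters for 2, 2 and 3 of these. A match describes these letters and not a bound site, and a window without one says nothing of the factor.

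The genes whose levels on the 6 arrays ran most like those of Irf7 were Gpn3 (Pearson r = 0.9998), Plch1 (r = 0.999) and Mybpc1 (r = 0.998), with 2 probes lacking a gene symbol. For Stat3 they were Fbxw18, Tmem205, Slco1a5, Nudt13 and Slc25a28, with r from 0.992 to 0.998. These are descriptions over 6 arrays in 3 groups. Irf7 was not well above background on any knockout array, so its correlations rest in part on background values. Of 18312 genes compared, 51 exceeded an r of 0.99 with Irf7 and 8 with Stat3.

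The identity of the cells was examined with marker genes, since in bulk RNA fewer cells of a type and less RNA per cell cannot be told apart. Sums of marker levels add probes that need not respond alike, so each sum is weighted to its brightest probe, which is named, and is compared between arrays only. Of 11 fibroblast markers, 7 were called higher in the TIA1 knockout and 8 in the TIAR knockout, none lower. Their summed linear level was 533595 and 567212 in wild type, 1314880 and 1289770 in the TIA1 knockout, and 1392400 and 1418830 in the TIAR knockout, with the S100a4 probe the brightest by its mean over the 6 arrays. Of the 11, 7 and 9 were well above background on the wild-type arrays, 8 and 9 in the TIA1 knockout, and 10 on each array of the TIAR knockout. Pdgfra and Lum were above it on neither wild-type array. Pdgfra gave 6.37 and 6.40 in wild type, against 10.05 and 10.23 in the TIA1 knockout and 11.68 and 11.51 in the TIAR knockout, and Lum was at background on all arrays. Fibroblast markers were thus called higher in both knockout lines, in which Irf7 was called lower, and Irf5 was called higher in the TIAR knockout and was not called in the TIA1 knockout. The part of these markers in either result was not tested. Of 11 macrophage and leukocyte markers, 2 were called higher and none lower in the TIA1 knockout, and none higher and 1 lower in the TIAR knockout. Their summed level, led by Itgam, was 11725 and 10958 in wild type, 22551 and 19841 in the TIA1 knockout, and 10476 and 10506 in the TIAR knockout. On each array of wild type and of the TIAR knockout 5 of the 11 were well above background, and in the TIA1 knockout 4 and 7 were. Ptprc, Adgre1 and Lyz2 were at background on all 6 arrays. The part of these markers in the Irf5 values was not tested. No B cell and dendritic cell marker of 7 and no endothelial marker of 5 was called by limma in either line, and 1 of each list had an unadjusted p below 0.05 in each line. The former sum, led by Siglech, ran from 7618 to 68271 within wild type, and the latter, led by Kdr, from 2985 to 3877 over the 6 arrays. Of 5 epithelial markers, led by Krt8, 1 was called higher in the TIA1 knockout and 3 in the TIAR knockout, with summed levels of 915 and 949 in wild type, 1153 and 1511 in the TIA1 knockout, and 2415 and 2387 in the TIAR knockout.

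The arrays differed in signal over background. The number of probes well above background was 23569 and 26295 in wild type, 24796 and 26011 in the TIAR knockout, and 16021 and 19996 in the TIA1 knockout, whose median raw intensity was 458 and 218 against 119 to 152 on the other 4 arrays. Their part in the TIA1 knockout values, including the spot of Irf7 at background, was not tested.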

How the data were processed

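RNA of 3 MEF lines, 2 arrays each, was measured on one-colour Agilent arrays. The authors deposited scanner intensity values (Agilent Feature Extraction 10.7.3.1) and a table of log2 values. According to the methods, they corrected background by normexp with an offset of 50, took log2 and applied loess and quantile normalization. The intensity columns were processed here along those lines: mean signal and background by normexp (offset 50), 1 pass of cyclic loess, quantiles over all spots, control and outlier spots removed, and spots averaged per probe (limma 3.58.1, R 4.3.3). The results correlated with the deposited log2 columns at 0.997 to 0.999 per array. Each comparison was fitted with lmFit and eBayes on its own 4 arrays. A gene was represented by its brightest probe over the 6 arrays. A probe was well above background on an array where at least 50% of its spots were so rated. Folds given as at least a value compare group means, with a floor at background, and leave out the spread between arrays. The number of arrays limits the precision.

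The members and the gene lists were chosen with earlier results of these data known. Every member, Tia1 and Tial1 were named, and in each list up to 4 genes per knockout line with the largest called change whose higher group was well above background. The 5 genes most like Irf7 and Stat3 were taken by Pearson r, and upstream sequences by a call in a knockout line. Other genes named (Ifnb1, Il6st, Lgals3bp, Ifitm3, Socs3 and single markers) were chosen after their values were seen. Promoters came from RefSeq (GRCm38.p6) and were searched in Python 3. The fits were also run on simulated data, whose outcome is not reported here. Alternatives were the deposited log2 table, the scanner's processed signal, other offsets, scaling, filters and fits, a replicate block, and leaving out each array. No set test was made.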

Additional observations from a re-analysis of the deposited data

How the results depend on the processing

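Of 374 values of the 27 differences of the factors under other settings, 326 kept their direction and their side of the threshold, 21 lost a call, 19 gained one and 8 changed sign. The sign changes were in differences that had not been called. Without 1 array the TIA1 KO MEF difference from WT MEF ran from -0.057 to 0.019 for Irf1, from -1.28 to 0.19 for Irf5 and from -0.19 to 0.0052 for Stat2, and the difference of TIAR KO MEF from TIA1 KO MEF ran from -0.015 to 0.26 for Irf3. With the processed signal they were Irf8 in TIA1 KO MEF (1.36) and Irf7 between the knockout lines (-1.24), where it was at background in both. With scaling to a common array median they were Stat3 in TIA1 KO MEF (-1.17) and Irf9 between the knockout lines (0.53).

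In TIA1 KO MEF against WT MEF, the processed signal called 0 of 11 member probes and 0 list genes, against 1 and 31 as reported, and 0 of all 55681 probes. The common array median called 7 member probes and 112 list genes. The fit of all 3 groups called 51 list genes. Without 1 array, the calls ran from 0 to 2 member probes and from 0 to 62 list genes, the zeros arising without either wild-type array, where no probe of the array was called. These 2 scalings moved the median difference of all probes to 1.98 and -0.68. Of all probes 1213 were called higher and 756 lower, so that 61.6% of the calls were higher. The common median gave 1857 and 14184 (11.6%), the fit of all groups 1881 and 2105 (47.2%), the removal of dim probes 1319 and 1630 (44.7%) and the block 505 and 166 (75.3%). In TIAR KO MEF against WT MEF, the processed signal called 2 of 11 member probes instead of 4, and leaving out 1 array gave 2 to 3. The common median called 1403 probes higher and 2776 lower instead of 1885 and 1321 (33.6% against 58.8% of calls higher), and took Irf1 to 0.65 and Stat3 to 0.66, neither called. Between 34 and 53 list genes were called, against 42. Between the knockout lines, 0 member probes were called with the deposited log2 table, the processed signal, the offset of 16 and quantiles without loess, 2 with dim probes removed, with all groups fitted and with an intensity trend, and 5 with the common median, against 1 as reported. List genes called there numbered 3, 52, 23 and 24 with the processed signal, the common median, dim probes removed and all groups fitted, against 14, and without 1 array 0 to 49, with 0 to 3 member probes. There 125 probes were called higher and 1384 lower with the processed signal (8.28% higher) and 7334 and 1082 with the common median (87.1%), against 958 and 908 (51.3%). The causes were not tested.

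Over all probes, arrays of the same replicate number did not deviate together (correlations of 0.03, 0.08 and -0.07). A pairing that touched few genes would not show in these correlations, and the labels give only the replicate number. The replicate block called 0, 4 and 0 member probes in the 3 comparisons, in the order above, and 10, 41 and 0 list genes.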
